A study of Sus scrofa with 6 samples.

Results

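*EPHA5* hosted 5 of the 4350 circRNAs analysed here, all 5 of them exonic, out of 2552 exonic circRNAs. They were taken as every circRNA whose host gene is listed as *EPHA5*. The gene itself was chosen by its back-splice read counts at the 2 ages, so its difference between the ages is described below and carries no p-value. The circRNAs were measured in testes of Landrace boars at 2 developmental stages. The 3 piglets of the Young_D30 group were 30 days old, and the 3 mature boars of the Adult_D210 group were 210 days old. Each boar gave 1 library from 1 of its testes, and the labels give no treatment. Total RNA was freed of ribosomal RNA, treated with RNase R to digest linear RNA and sequenced, and reads that cross a back-splice junction, the joint that closes a circRNA, were counted. The tissue is whole testis, in which fewer cells of a type and less RNA per cell cannot be told apart.

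EPHA5 is a receptor tyrosine kinase of the Eph family. Eph receptors on one cell bind ephrins on a neighboring cell, and both partners can signal, which steers cell adhesion, repulsion and the cytoskeleton at cell contacts. A-type receptors such as EPHA5 bind mainly the ephrin-A ligands, which are tied to the membrane by a lipid anchor, and EPHA5 is best known for guiding axons and shaping synapses. CircRNAs arise when a downstream 5′ splice site is joined to an upstream 3′ splice site, so that 1 or more exons of the gene are closed into a ring.

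The 5 circRNAs lay on the minus strand of chromosome 8, within 67267695 to 67510980 (build Sscrofa10.2), a region of 243286 nt. Read in the direction of transcription, circRNA10004 came first, at 67472048 to 67510980, with 2 exons. The single exon of circRNA10003, 664 nt long at 67472048 to 67472711, was the second exon of circRNA10004. The first exon of circRNA10004 was 65 nt long, which gives a ring of 729 nt once the intron is removed. circRNA10002 ran from this same 664 nt exon to an exon of 125 nt, at 67318875 to 67472711, with 4 exons. That 125 nt exon was in turn the first of circRNA10001, at 67304035 to 67318999 with 3 exons, and of circRNA10000, at 67267695 to 67318999 with 7 exons. Together the rings covered 11 exons of the gene.

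**Figure D1:**
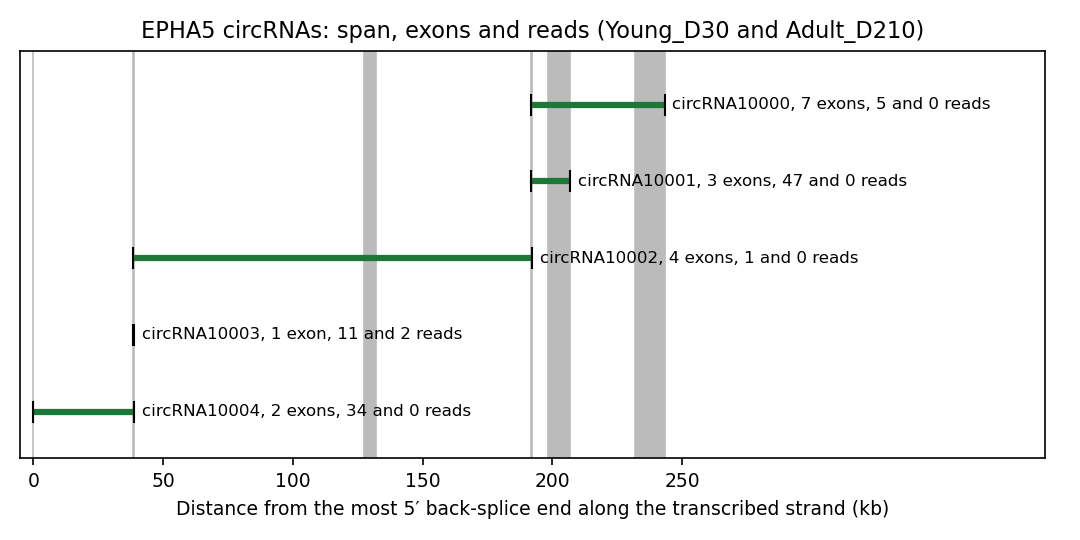
Span of each *EPHA5* circRNA along the transcribed strand, in kb from the most 5′ back-splice end, with its exon number and its reads summed over the 3 Young_D30 and the 3 Adult_D210 libraries. Gray bands are the stretches between the introns listed for these circRNAs, and wide bands hold several exons; circRNA10004 and circRNA10003 share their downstream end, and circRNA10001 and circRNA10000 their upstream end.

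The circRNAs shared splice ends in a chain. The 5 circRNAs used 4 different downstream ends and 3 different upstream ends. circRNA10003 and circRNA10004 had the same downstream end, circRNA10002 and circRNA10003 the same upstream end, and circRNA10000 and circRNA10001 the same upstream end. Each of the 5 therefore shared an end with another, against 74.8% of all 2552 exonic circRNAs analysed. That share includes host genes with only 1 ring, which cannot share an end. For the related receptor gene *EPHA3*, 9 of 11 exonic circRNAs (81.8%) shared an end. A back-splice read shows the 2 ends that are joined, so rings that share only 1 end are counted apart.

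The introns beside the rings were long. The 2 introns flanking each *EPHA5* circRNA added up to 44549 to 126672 nt, with a median of 84716 nt. The median over the 2515 exonic circRNAs with both introns listed was 12026 nt. For those of *EPHA3*, the median was 34159 nt, with a range of 10934 to 254936 nt. The smallest *EPHA5* sum, of circRNA10002, was still at percentile 89.4 of the 2515, and the largest, of circRNA10003, at percentile 97.8. The intron of 88468 nt downstream of the 664 nt exon and the intron of 59970 nt upstream of the 125 nt exon were the longest beside the *EPHA5* rings. The spans, introns included, went from 664 nt in circRNA10003 (percentile 5.92 of the exonic circRNAs) to 153837 nt in circRNA10002 (percentile 99.6). These values come from 1 gene, whose rings share introns, and were not tested.

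The 5 circRNAs had 100 back-splice reads in all, 98 in Young_D30 and 2 in Adult_D210. circRNA10001, with 3 exons, had 19, 11 and 17 reads in Young_D30 replicates 1, 2 and 3 and 0 reads in each Adult_D210 library. circRNA10004, with 2 exons, had 7, 15 and 12 reads in the Young_D30 libraries and again 0 in each Adult_D210 library. For both, every Young_D30 library lay above every Adult_D210 library. The single-exon circRNA10003 had 8, 2 and 1 reads in Young_D30 and 0, 0 and 2 in Adult_D210, so that its groups overlapped and Adult_D210 replicate 3 held as many reads as Young_D30 replicate 2. It was the only one of the 5 with a read in Adult_D210. The other circRNAs were rare, with 4, 1 and 0 Young_D30 reads for circRNA10000, 1, 0 and 0 for circRNA10002, and 0 Adult_D210 reads for both.

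**Figure D2:**
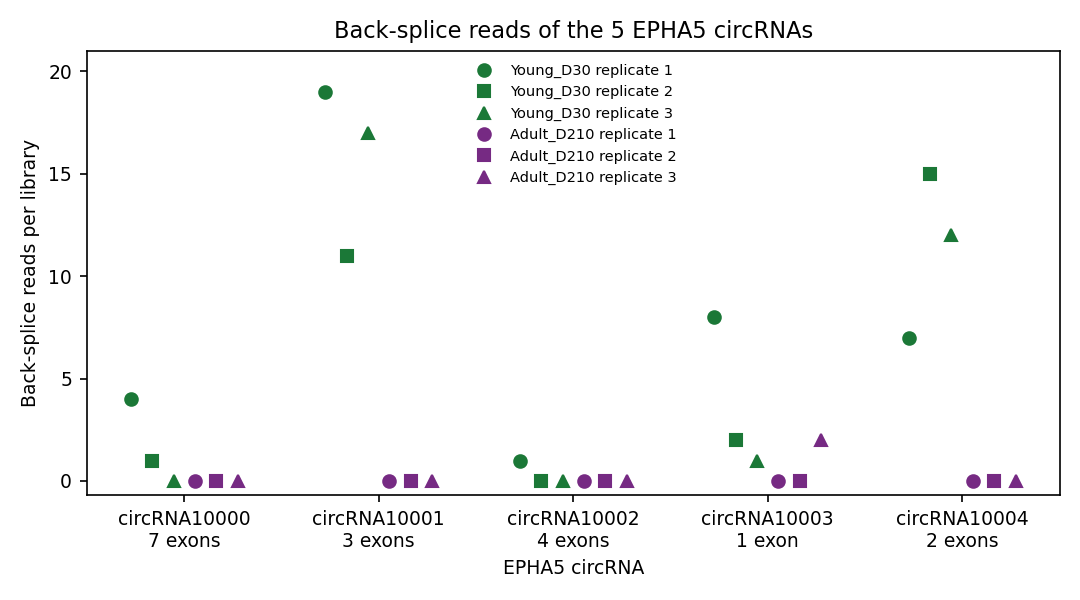
Back-splice reads of each *EPHA5* circRNA in each of the 6 libraries, with exon numbers under the names. Young_D30 libraries held 11 to 19 reads of circRNA10001 and 7 to 15 of circRNA10004, while the only Adult_D210 reads, 2, were of the single-exon circRNA10003 in replicate 3.

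Levels were compared as SRPBM, back-splice reads scaled to the mapped reads of the library and to the read length of 150 nt. In Young_D30, circRNA10001 was at 2.56 ± 0.86 SRPBM (SD, n = 3), followed by circRNA10004 at 1.79 ± 0.52 and circRNA10003 at 0.629 ± 0.696. The first and second did not differ beyond their spread, since circRNA10004 was the higher one in replicate 2. circRNA10000 was at 0.289 ± 0.376 SRPBM and circRNA10002 at 0.0595 ± 0.103, levels that stayed under 3 reads in a library except for circRNA10000 in replicate 1. A count of 0 in an Adult_D210 library allows up to 3 reads, or 0.407 to 0.494 SRPBM depending on the library, for counting error only. With the Young_D30 mean set against the mean of these limits, circRNA10001 was at least 5.86-fold and circRNA10004 at least 4.11-fold lower in Adult_D210. Such bounds leave out the spread between the piglets. For circRNA10003, 11 Young_D30 reads against 2 Adult_D210 reads gave a ratio per mapped read of 6.12 (exact 95% interval 1.34 to 56.8, counting error only).

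Summed over the 5 circRNAs, *EPHA5* had 39, 29 and 30 reads in the Young_D30 libraries and 0, 0 and 2 in the Adult_D210 libraries. This was 5.33 ± 1.41 SRPBM (SD, n = 3) and 0.0911 ± 0.158 SRPBM (SD, n = 3). The groups were far apart, with 54.5 times as many reads per mapped read in Young_D30 (exact 95% interval 14.7 to 457, counting error only). At the Young_D30 rate per mapped read, 38.7, 31.9 and 38.4 *EPHA5* reads would have been counted in Adult_D210 replicates 1, 2 and 3. At the Young_D30 rate per back-splice read, between 17.7 and 32.9 reads would have been counted in each. Both Adult_D210 reads came from replicate 3. Without it, *EPHA5* was at least 11.8-fold below the Young_D30 mean, with 3 reads allowed in each of the other 2 libraries.

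The table analysed here holds the exonic circRNAs of 4 chromosomes, each with at least 1 read in Young_D30 replicate 1, and begins on chromosome 8 within *EPHA5*. At least 1 other circRNA that the study lists for *EPHA5* was not analysed here, nor was any ring absent from Young_D30 replicate 1. Of the 5 circRNAs, 3 had reads in every Young_D30 library, and 4 in at least 1 library besides replicate 1. Per 10000 back-splice reads, *EPHA5* had 11.8 reads in Young_D30 replicate 1, 15.7 in replicate 2 and 16.1 in replicate 3, against 0, 0 and 1.57 in Adult_D210. Young_D30 replicate 1 was thus the lowest of the 3 piglets per back-splice read, but the highest per mapped read, at 6.96 SRPBM against 4.43 and 4.61.

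A fit of all circRNAs with at least 10 reads, by edgeR's quasi-likelihood test, took in 3 of the 5 *EPHA5* circRNAs, which held 94 of their 100 reads. A call needed a Benjamini-Hochberg adjusted p under 0.05 together with a log2 fold change above 1 or below -1. circRNA10001 and circRNA10004 were called lower in Adult_D210, beside 4.85% of the 1341 circRNAs tested. circRNA10003 was not called, with a fitted log2 fold change of −1.92 (standard error 1.49). Of the 3, 2 had every Young_D30 library above every Adult_D210 library per mapped read, as did 23.5% of the circRNAs tested. These counts rest on the contrast by which the gene was chosen and are given as a description. The calls are fragile at 0 to 19 reads a library. With the filter still set on all 6 libraries, only 1 of the 2 was left without Young_D30 replicate 2, Adult_D210 replicate 2 or Adult_D210 replicate 3. Without any of the other 3 libraries, 0 were left. With Young_D30 replicate 1 left out of the filter as well, 2 were called. With reads summed per host gene, the fitted log2 fold change of *EPHA5* was −4.84 (standard error 0.94), and *EPHA5* was called lower beside 14.6% of the 478 host genes tested.

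Within Young_D30, the *EPHA5* reads were split mainly between 2 rings. circRNA10001 took 47.8% ± 9.4 (SD, n = 3) of them and circRNA10004 36.6% ± 17.1. circRNA10003 took 10.2% ± 9.1, circRNA10000 4.57% ± 5.22 and circRNA10002 0.855% ± 1.48. The 2 rings at the 5′ side of the region, circRNA10004 and circRNA10003, had 15, 17 and 13 reads in the Young_D30 libraries, and the 2 rings at the 3′ side, circRNA10001 and circRNA10000, had 23, 12 and 17. Reads were thus of similar number on both sides, and only the 1 read of circRNA10002 joined them.

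The split varied between the piglets. circRNA10004 was 17.9% of the 39 reads in replicate 1 (95% Wilson interval 8.98 to 32.7), 51.7% of the 29 reads in replicate 2 (34.4 to 68.6) and 40.0% of the 30 reads in replicate 3 (24.6 to 57.7). The intervals of replicates 1 and 2 did not overlap, the only such pair among the 15 pairs of libraries compared over the 5 circRNAs. The single-exon circRNA10003 was 20.5% of the reads in replicate 1 (10.8 to 35.5) against 6.90% and 3.33% in replicates 2 and 3, with overlapping intervals. In Adult_D210 the 2 reads counted were both of circRNA10003, too few to give a split.

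**Figure D3:**
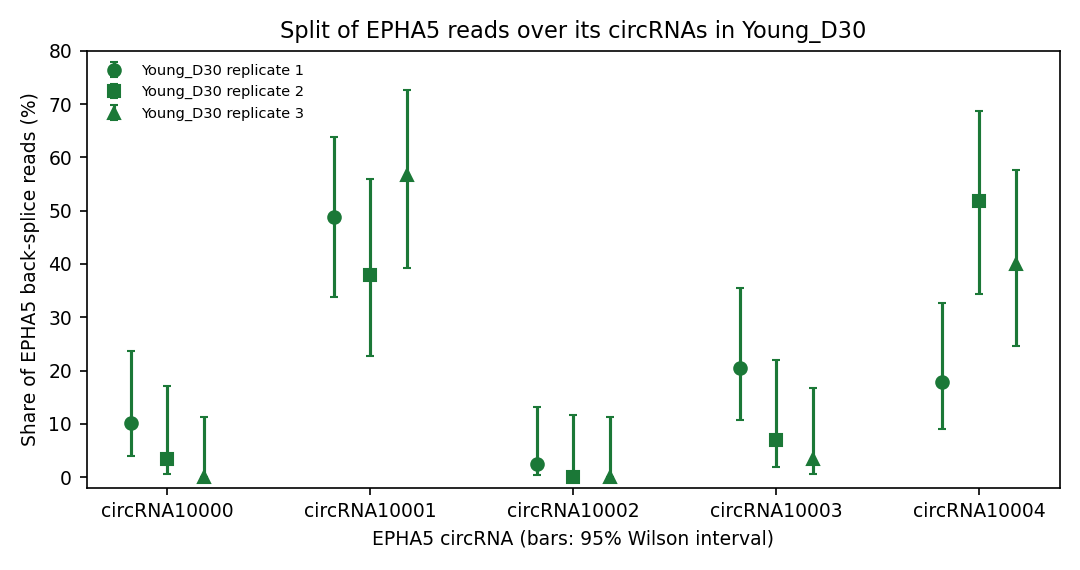
Share of the *EPHA5* back-splice reads of a Young_D30 library, in percent, that fell on each circRNA, with 95% Wilson intervals that cover counting error only. circRNA10001 lay between 37.9% and 56.7% in the 3 libraries, and circRNA10004 between 17.9% and 51.7%.

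Among the exonic hosts, *EPHA5* was of moderate level. By mean SRPBM in Young_D30, it was number 153 of 659 host genes. At least as many Young_D30 reads were counted for 151 host genes, itself included, and 3 of these had no more than 2 reads in Adult_D210: *EPHA5*, *ARHGAP24* and *NDST3*, which encodes an enzyme of heparan sulfate synthesis. Those last 2 were singled out after their values were seen. The host genes whose levels followed *EPHA5* most closely over the 6 libraries, among 346 others with at least 30 reads, were *PPARG* (Pearson r of log2 levels 0.998), *CNTN3* (0.993), *ZNF827* (0.980), *SLC4A4* (0.979) and *RSRC1* (0.977). *PPARG*, which encodes a nuclear receptor of lipid metabolism, had 27, 22 and 18 reads in Young_D30 and 0, 0 and 2 in Adult_D210. The 6 points of each correlation fall into the 2 age groups, and all hosts were read from the same 6 libraries.

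The rest of the pathway was read from lists of Eph receptors and ephrins, of proteins that act downstream of them, and of other axon guidance genes. Of 22 receptors and ephrins, 7 hosted a circRNA in the table, and only *EPHA5* and *EPHA3* had one with at least 10 reads. *EPHB1* had 1 exonic circRNA with 3 reads, all in Young_D30 replicate 1, and its host is listed by its Ensembl identifier. The receptors *EPHA1*, *EPHA8* and *EPHB4* and the ligand *EFNA1* had 1 intronic circRNA each, with 4, 1, 1 and 4 reads, all in Young_D30. Since exonic circRNAs of only 4 chromosomes were analysed here, a gene without one in the table was not measured as lacking circRNAs.

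*EPHA3*, a receptor of the same subclass that also binds ephrin-A ligands, hosted 11 exonic circRNAs on chromosome 13. They had 104, 47 and 55 reads in the Young_D30 libraries and 16, 13 and 4 in the Adult_D210 libraries, or 11.4 and 1.62 SRPBM on average. The 2 groups did not overlap. Of all 1341 single circRNAs tested, 23.5% had every Young_D30 library above every Adult_D210 library per mapped read. Of the 6 *EPHA3* circRNAs tested, 2 were called lower in Adult_D210 and 0 higher by edgeR's quasi-likelihood test. The shares of all 1341 were 4.85% lower and 3.43% higher. Every exonic ring in the table has a read in Young_D30 replicate 1, which favors lower calls. Intronic circRNAs among the 1341 were not held to this, and the adjusted p-values below do not account for it. circRNA11957, with 6 exons at 177456123 to 177480795, had 32, 16 and 14 reads in Young_D30 and 0 in each Adult_D210 library. This was at least 7.86-fold below the Young_D30 mean (adjusted p = 0.00496 by the same test). circRNA11955, with 4 exons and the same downstream end, had 17, 10 and 9 reads against 0. This was at least 4.53-fold below the Young_D30 mean (adjusted p = 0.0226 by the same test). Without Young_D30 replicate 1 neither was called, and circRNA11955 was not called without any other 1 library either. With Young_D30 replicate 1 left out of the filter as well, circRNA11957 was called and circRNA11955 was not.

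One *EPHA3* ring had reads in every Adult_D210 library. circRNA11963, a single exon of 661 nt at 177703889 to 177704549, had 15, 9 and 16 reads in Young_D30 and 10, 13 and 4 in Adult_D210, with overlapping groups. In edgeR's quasi-likelihood test its log2 fold change was −0.24 with a standard error of 0.61 and an adjusted p of 0.833, and the sign turned without Young_D30 replicate 3 or Adult_D210 replicate 3. The 10 *EPHA3* rings of more than 1 exon had 166 reads in Young_D30 and 6 in Adult_D210, and 9 of them had no Adult_D210 read. The single-exon ring made up 20.9% ± 7.5 (SD, n = 3) of the *EPHA3* reads in Young_D30 and 87.5% ± 21.7 (SD, n = 3) in Adult_D210. Every Adult_D210 library lay above every Young_D30 library. These shares are given with no test, since the table holds only rings with a read in Young_D30 replicate 1, and *EPHA3* rings seen only in other libraries, those of the adults included, do not enter them. The single-exon ring of *EPHA5*, of 664 nt, was likewise the one with reads in Adult_D210, but 2 reads do not allow the same comparison.

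Over all the lists without *EPHA5*, 37 circRNAs of 11 host genes were tested by edgeR's quasi-likelihood test, of which 5 were called lower in Adult_D210 and 0 higher. The shares of all 1341 tested were 4.85% lower and 3.43% higher. At an unadjusted p under 0.05, 16 of the 37 were lower and 1 higher, where 17.2% of all 1341 were lower and 7.98% higher. DESeq2 called 4 lower and 0 higher. The median log2 fold change was −1.65 over the 37 and −0.42 over all circRNAs tested. The 37 are all exonic, and every exonic circRNA in the table has a read in Young_D30 replicate 1. The intronic circRNAs among the 1341 were not held to this, so the 37 and the 1341 are unlike sets. The adjusted p-values of the pathway circRNAs do not account for this selection. Leaving out any 1 library left 2 calls. The other 3 calls were circRNA11119 of *CNTN3*, circRNA11986 of *ROBO2* and circRNA11329 of *PIK3CB*. These lists were drawn up with earlier results of these data known. All 3 of these host genes lie on chromosome 13, as *EPHA3* does.

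Of 33 axon guidance genes, 8 hosted a circRNA, and 2 of the 10 circRNAs tested were called lower, beside 4.85% of all 1341 tested. Per mapped read, 23.5% of all 1341 had every Young_D30 library above every Adult_D210 library. *CNTN3* encodes a contactin, a cell adhesion molecule of neurons that is held by a lipid anchor. Its circRNA11119 had 39, 40 and 33 reads in Young_D30 and 2, 1 and 5 in Adult_D210, and the groups lay far apart. In edgeR's quasi-likelihood test its log2 fold change was −3.43 with a standard error of 0.63 and an adjusted p of 0.00271, and it was called without any 1 library. *ROBO2* encodes a receptor for the repulsive Slit ligands. Its circRNA11986 had 19, 11 and 7 reads in Young_D30 and 1, 0 and 1 in Adult_D210, again without overlap. The edgeR test gave a log2 fold change of −3.66 with a standard error of 1.03 and an adjusted p of 0.0332, and this call was lost with DESeq2, with the legacy quasi-likelihood method, with no filter on low counts and without any 1 library. The related *ROBO1* had 36, 18 and 15 reads over 12 exonic rings in Young_D30 and 0, 1 and 1 in Adult_D210, although neither of its 2 tested circRNAs was called.

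Of 46 names of downstream proteins, 12 hosted a circRNA. Of the 21 tested, 1 was called lower, a share similar to the 4.85% of all 1341 tested. circRNA11329 of *PIK3CB*, which encodes a catalytic subunit of phosphoinositide 3-kinase, had 8, 13 and 26 reads in Young_D30 and 0, 1 and 0 in Adult_D210. The edgeR test gave a log2 fold change of −4.89 with a standard error of 1.25 and an adjusted p of 0.0249, and the call held without Young_D30 replicate 1 but not without any other 1 library. Its host is listed by the Ensembl identifier ENSSSCG00000021203. None of the 8 tested circRNAs of *PAK2*, a kinase that acts on the cytoskeleton, was called. The gene as a whole was at 31.1 SRPBM in Young_D30 and 23.1 in Adult_D210, with overlapping groups. In the edgeR fit, scaled to back-splice reads, its log2 fold change was 0.28 with a standard error of 0.27. None of the 10 of *TIAM1*, an activator of the GTPase Rac, was called either.

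**Figure D4:**
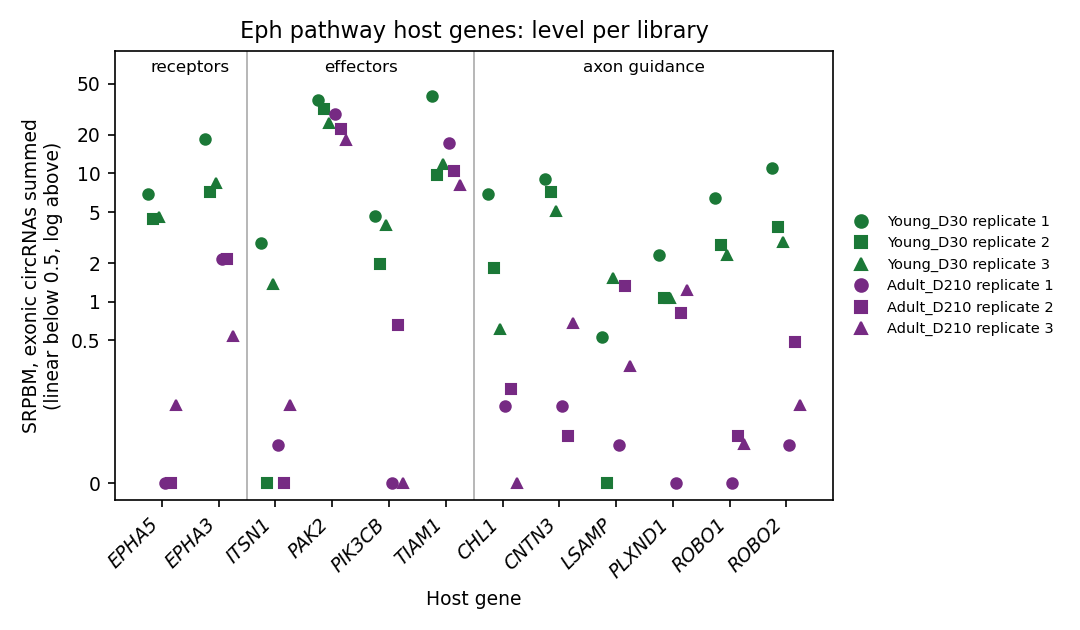
SRPBM per library, summed over the exonic circRNAs of each host gene, for the Eph pathway and axon guidance hosts with at least 1 tested circRNA; the axis is linear below 0.5 and logarithmic above. *EPHA5* had 4.43 to 6.96 SRPBM in Young_D30 and 0 to 0.273 in Adult_D210, while the groups overlapped for *PAK2*, *TIAM1*, *ITSN1*, *LSAMP* and *PLXND1*.

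Other host genes moved with age beside *EPHA5*. Of 25 genes known from meiotic cells and spermatids, 7 hosted circRNAs in the table, among them *SPATA5*, *SLC9B1* and *IQCG*, while *SYCP1*, *SYCP3*, *PRM1*, *TNP1* and *AKAP4* were among the 18 with none. Their summed reads were 25.2 to 36.3 per 10000 back-splice reads in Young_D30 and 82.7 to 159 in Adult_D210. By edgeR's quasi-likelihood test, 5 of their 16 tested circRNAs were called higher in Adult_D210 and 0 lower. The shares of all 1341 tested were 3.43% higher and 4.85% lower. The part of this in the *EPHA5* difference was not tested. None of 9 neural marker genes and none of 5 endothelial ones hosted a circRNA in the table. Of the Sertoli cell markers 1 of 10 (*GATA4*), of the spermatogonial markers 1 of 8 (*KIT*) and of the Leydig and interstitial markers 3 of 8 (*CYP17A1*, *STAR* and *PDGFRA*) did. Of the peritubular markers 2 of 5 (*ACTA2* and *MYLK*) and of the macrophage markers 1 of 4 (*CD163*) did. A list of host genes on part of the chromosomes cannot show which testis cells the *EPHA5* rings came from.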

How the data were processed

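Reads were trimmed (Cutadapt) and aligned (TopHat2) by the authors against the pig genome of Ensembl release 88 (build Sscrofa10.2 in the submitters' processing notes), and took back-splice reads with TopHat-Fusion and CIRCExplorer2. The deposited values are raw counts of back-splice reads for each circRNA in each library, and SRPBM, a signal scaled by mapped reads and read length. Mapped reads, recovered here from count and SRPBM, were 37364412 to 49179118 per library, and back-splice reads 12701 to 33091. The members and gene lists were chosen with earlier results of these data known.

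Counts of the 1341 circRNAs with at least 10 reads, and of the 478 host genes with at least 10 exonic back-splice reads, were tested with edgeR 4.0.16 in R 4.3.3 (TMM, robust quasi-likelihood fit and test, Benjamini-Hochberg adjustment), tested beforehand on simulated data. The standard errors given for edgeR were derived as the size of the log2 fold change divided by the square root of the test's F statistic. Alternatives included DESeq2 1.42.0. Of 482 hosts listed by Ensembl identifier, 284 matched a symbol. All *EPHA5* circRNAs are described, as are the other Eph and ephrin hosts, the called pathway circRNAs and the 5 hosts of highest Pearson r (log2 CPM, prior count 2). Ratios carry exact and shares Wilson 95% intervals, from SciPy 1.17.1. Intervals and floors cover counting error only, since reads that carry no molecular identifier may copy one molecule.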

Additional observations from a re-analysis of the deposited data

How the results depend on the processing

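The calls of *EPHA5* circRNAs stood at 2 with DESeq2, without TMM, with mapped reads as library size, with edgeR's exact test, with the legacy quasi-likelihood method, at each filter on low counts, without a fold change limit, and with Young_D30 replicate 1 left out of filter and test. With 1 library fewer in the test and the filter still set on all 6, 0 to 1 were called. A replicate block gave 0 calls by edgeR's quasi-likelihood test. The numbers do not pair the boars (correlations of same-numbered deviations 0.05, −0.01 and −0.03, and not every library was closest to its own number), and the block lowered the calls over all circRNAs from 111 to 33. The summed *EPHA5* log2 fold change, a description since the gene was chosen by this contrast, kept its direction and its call under every alternative. It was at −5.52 to −4.71 with all 6 libraries, −4.83 with the block and −7.86 to −4.08 without 1 library. The −7.86, without Adult_D210 replicate 3, has no Adult_D210 read behind it. Pathway circRNAs called lower, 5 of 37, became 8 with edgeR's exact test, 1 with the block, 2 to 2 without each library and 3 without Young_D30 replicate 1 in filter and test, and 0 were called higher in each. The causes of these changes were not tested, beyond fewer samples. circRNA11963 of *EPHA3* turned to a log2 fold change of 0.018 without Young_D30 replicate 3 and 0.026 without Adult_D210 replicate 3, in a range of −0.71 to 0.026 without 1 library. Mapped reads as library size moved the median of all circRNAs from −0.42 to −0.90 and the calls from 65 lower and 46 higher to 68 and 9. With 3 reads in a library required, 0 *EPHA5* circRNAs were detected in Adult_D210 in place of 1. Shares of circRNA10001 and circRNA10004 moved by less than 1 SD. At 0 to 19 reads per library, changes of the rarer rings were not detectable.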
